A study of Mus musculus with 12 samples.

Results

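The genes described here are 8 channels and pores that carry water, sodium and chloride across the epithelium of the lung: the aquaporins Aqp1, Aqp3, Aqp4 and Aqp5, the epithelial sodium channel subunits Scnn1a, Scnn1b and Scnn1g, and the chloride channel Cftr. They were chosen by name. Every array probe whose transcript accession maps to one of the 8 genes was used, which gave 12 of the 41174 probes of the array, and each gene was followed on all 12 arrays of the series. Aqp4 has 3 probes, Scnn1a and Cftr have 2 each, and the brightest probe stood for the gene, so that the 8 genes are 8 of 32678 features (a feature is a gene or an unnamed transcript). All 8 passed the filter for testing, which asked that Feature Extraction, the scanner software, mark the signal as well above background on each of the 3 arrays of a group. Scnn1g passed it through adult lung alone.

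RNA of mouse epithelial cells was hybridised to single-colour arrays in 4 groups of 3 arrays each, labelled as lung, mammary, reprogrammed lung and reprogrammed mammary; the first pair are called adult lung and adult mammary below. The adult cells came from female mice of 10 weeks, whose organs were minced, digested with trypsin and collagenase and enriched for epithelium by repeated slow spins, with no sort named. In the same protocol such cells serve as donor cells for transplantation in Matrigel, a basement membrane gel. Which organ the name of a reprogrammed sample refers to (that of the donor cells or that of the tissue formed), the strain, the genotype, the host and the time after transplantation are not given in the sources used here. Nor do the labels tie the arrays of a group to separate animals, so the p-values measure only the spread between arrays, which may be technical.

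As background, the surface of the alveolus is kept nearly dry by active salt transport. Sodium enters the epithelial cell through the apical epithelial sodium channel (ENaC), built from an alpha (Scnn1a), a beta (Scnn1b) and a gamma (Scnn1g) subunit, and is pumped out on the other side by the Na,K-ATPase, while chloride moves through CFTR and other anion channels. Water follows through aquaporins: Aqp5 lies in the apical membrane of the flat alveolar type I cell and of many glands, Aqp1 in the endothelium of small vessels and in red cells, and Aqp3 and Aqp4 in basolateral membranes of airway and other epithelia. Aqp3 also carries glycerol.

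The promoters of 4 genes are shown because the results turn on these genes: Scnn1g and Aqp1 differed between groups, Scnn1b is the other ENaC subunit on the chromosome and strand of Scnn1g and passed no test, and Aqp5, a gene of the alveolar type I cell, passed none either. They are the 250 bases before the RefSeq start site, 5′ to 3′, build GRCm38.p6, with the motifs found by a search of both strands in capitals. The motifs searched were TATAAA (the TATA box), GGGCGG (the GC box bound by Sp1 family factors), CTCAAG (the core bound by the lung factor NKX2-1) and AGAACA (the glucocorticoid receptor half-site).
Scnn1g, chr7:121734229-121734478, plus strand: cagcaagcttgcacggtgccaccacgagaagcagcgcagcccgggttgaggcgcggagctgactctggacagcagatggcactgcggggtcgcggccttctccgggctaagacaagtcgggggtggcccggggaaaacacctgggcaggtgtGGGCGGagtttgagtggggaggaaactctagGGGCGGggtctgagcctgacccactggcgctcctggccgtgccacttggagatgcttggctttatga
Scnn1b, chr7:121864788-121865037, plus strand: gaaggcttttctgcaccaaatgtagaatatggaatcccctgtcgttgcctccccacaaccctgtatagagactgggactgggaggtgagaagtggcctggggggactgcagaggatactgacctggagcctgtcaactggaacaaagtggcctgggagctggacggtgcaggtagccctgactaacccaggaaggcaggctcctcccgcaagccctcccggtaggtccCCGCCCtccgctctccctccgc
Aqp5, chr15:99590778-99591027, plus strand: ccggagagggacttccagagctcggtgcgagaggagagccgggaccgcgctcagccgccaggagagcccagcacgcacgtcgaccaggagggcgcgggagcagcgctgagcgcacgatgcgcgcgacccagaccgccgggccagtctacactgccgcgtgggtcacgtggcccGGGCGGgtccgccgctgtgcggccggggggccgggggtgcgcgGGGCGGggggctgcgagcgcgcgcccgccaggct
Aqp1, chr6:55336049-55336298, plus strand: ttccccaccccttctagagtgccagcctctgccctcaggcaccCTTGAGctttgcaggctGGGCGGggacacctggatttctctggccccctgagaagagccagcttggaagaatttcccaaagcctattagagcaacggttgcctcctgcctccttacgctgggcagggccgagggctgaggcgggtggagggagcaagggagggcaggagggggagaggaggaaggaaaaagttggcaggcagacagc
The Scnn1g window held GC boxes 67 and 98 bases before the start, and the Scnn1b window held 1, on the reverse strand, 22 bases before it. GC content was 65.2% in the Scnn1g window, with 16 CG dinucleotides, and 60.8% in the Scnn1b window, with 7. The Aqp5 window was richer, with a GC content of 78.4% and 38 CG dinucleotides, and had GC boxes 34 and 77 bases before the start. In the Aqp1 window (GC content 62%, 5 CG dinucleotides) a GC box lay 190 bases and the NKX2-1 core, on the reverse strand, 207 bases before the start. Over all 32817 RefSeq mouse promoters of this length, 32.7% held a GC box, 13.3% the NKX2-1 core, 12.4% the TATA box and 16.1% the glucocorticoid half-site, and the median GC content was 52.4%. A match is only a match of letters. Of the 8 genes, 6 had an entry among these promoters, and in those of Aqp3 and Cftr, which are not printed, the search found a TATA box 29 bases before the start of Aqp3 and 6 GC boxes before that of Cftr.

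Levels are log2 of the background-subtracted signal relative to the 75th percentile of the array, so 0 is the 75th percentile of that array and a step of 1 is a 2-fold change. Signal at the 75th percentile lay between 293.8 and 608.5, against negative-control medians of 18 to 23, and no spot was saturated. Adult mammary replicate 4 and reprogrammed lung replicate 1 stood apart: 87.8% and 90.3% of features were above background there, against 22703 to 24615 of 32678 on each of the other 10 arrays, and both showed B cell markers at a median level of 0.59 and 3.31. In the other libraries of these 2 groups that median lay between -4.77 and -3.22, and reprogrammed mammary replicate 2 had 0.81. Where leaving out these 2 arrays changed a call or moved a called value of the 8 genes by over 1.5 times, the result is given with and without them. All 10 tested alveolar type II markers and all 11 tested type I markers were higher in adult lung than in adult mammary, and 10 and 11 of them were lower in reprogrammed lung than in adult lung. Of 10 mammary alveolar and milk markers, 7 were lower in adult lung than in adult mammary and 7 higher in reprogrammed lung than in adult lung. For 7 markers of hormone-sensing mammary luminal cells these counts were 7 and 6. No marker of these mammary lists passed between reprogrammed lung and adult mammary, where 0.0122% of all features did. Shares of all features for the other comparisons are given below. Median levels of 11 pan-epithelial markers ran from -0.01 to 0.82 on the adult lung arrays, 0.09 on reprogrammed lung replicate 1 and 2.99 to 3.89 on the other 8 arrays. Those of 16 endothelial markers ran from 3.79 to 4.02 in adult lung and from 0.66 to 2.46 elsewhere.

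**Figure D1:**
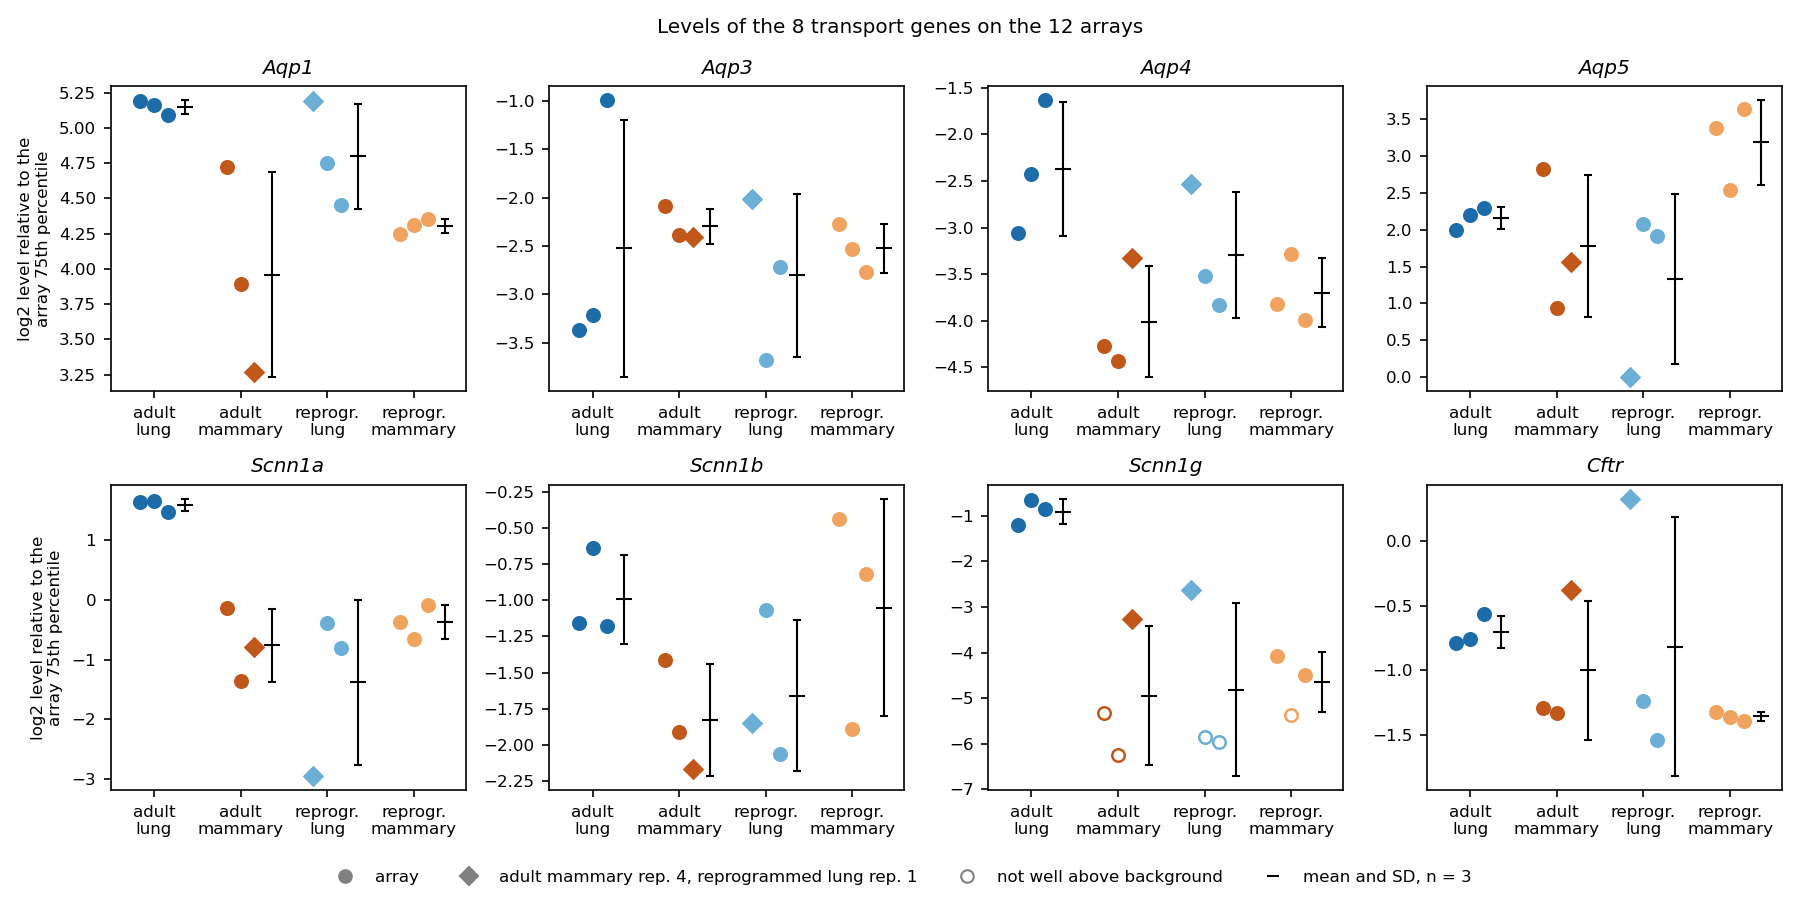
Level of each of the 8 transport genes on each array (log2 relative to the array's 75th percentile, one panel per gene with its own axis), with the mean and SD of the 3 arrays beside each group; open circles are arrays on which the probe was not well above background and diamonds are adult mammary replicate 4 and reprogrammed lung replicate 1. The 3 adult lung arrays of Scnn1a (1.48 to 1.66) and Scnn1g (-1.21 to -0.66) lie above all other 9 arrays, whereas those of Aqp5 (2.00 to 2.29) lie among the others.

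Scnn1a, the alpha subunit of the sodium channel, was higher in adult lung than in the other groups. So was Scnn1g, the gamma subunit, but it passed the filter through adult lung alone, which favours that direction. Both were higher on every adult lung array than on any array of adult mammary or the reprogrammed groups, while Scnn1b, the beta subunit, passed no test. Here and below, groups without overlap are a description. The share of all features without overlap is not given, so it cannot be read as particular to these genes. Differences were tested with limma, one fit over all 12 arrays and 24496 features, and a gene is said to have changed where the Benjamini-Hochberg adjusted p over all features was under 0.05. Of the 8 genes, 4 were higher in adult lung than in adult mammary and none was lower, where 28.5% of all features passed the test (12.5% higher, 15.9% lower). Both reprogrammed groups had the same 2 genes, Scnn1a and Scnn1g, lower than adult lung: 2 of 8 against 23.4% of all features (14.1% higher, 9.31% lower) for reprogrammed lung, and 2 of 8 against 26.1% (14.9% higher, 11.2% lower) for reprogrammed mammary. Scnn1g is among the called genes in all of these counts. These 3 comparisons share the adult lung arrays. The median difference of the 8 genes was 1.01 between the adult groups and -0.75 in both reprogrammed groups against adult lung, beside medians over all features of 0, 0.1 and 0.04.

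Scnn1a encodes the subunit without which ENaC carries little current. Its levels were 1.64, 1.66 and 1.48 on adult lung replicates 1, 2 and 3. They were -0.14, -1.35 and -0.79 on adult mammary replicates 1, 2 and 4, and -2.95, -0.38 and -0.80 on reprogrammed lung replicates 1, 3 and 4. Reprogrammed mammary replicates 1, 2 and 3 gave -0.37, -0.65 and -0.09. The adult lung arrays stood above all others without overlap, and the other 3 groups overlapped one another, with reprogrammed lung replicate 1 the lowest of all. The difference between adult lung and adult mammary was 2.35 ± 0.56 (log2, SE, 5.11-fold, adjusted p = 0.0108), and 2.34 (adjusted p = 0.00109) without both arrays that stood apart. Reprogrammed lung was lower than adult lung, with a log2 difference of -2.97 ± 0.56 (7.85-fold, adjusted p = 0.00375), and without those arrays the difference was -2.19 (adjusted p = 0.00169). Reprogrammed mammary was also lower than adult lung, at -1.96 ± 0.56 (3.9-fold, adjusted p = 0.0263; -1.96 and adjusted p = 0.00124 without those arrays). In such bulk samples fewer cells that make a transcript and less of it per cell cannot be told apart.

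The calls for Scnn1a were not all equally firm. The fall in reprogrammed lung kept its call in all 26 alternative settings, with differences from -3.47 to -2.19. The difference between the adult groups lost its call under quantile normalization only (2.33, adjusted p = 0.0523). That in reprogrammed mammary lost its call under quantile normalization (-1.95, adjusted p = 0.103), with a replicate block (-1.96, adjusted p = 0.0556) and without any 1 of adult lung replicates 1, 2 and 3 or reprogrammed mammary replicates 1, 2 and 3 (-2.10 to -1.82, adjusted p up to 0.0844). The second Scnn1a probe, which reads another stretch of the transcript, gave differences of 2.47 between the adult groups (adjusted p = 0.000624), -2.74 for reprogrammed lung (adjusted p = 0.00041) and -1.72 for reprogrammed mammary (adjusted p = 0.00475). Both probes had their 3 adult lung arrays above all other arrays.

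Scnn1g, the gamma subunit, was dim, and outside adult lung many of its arrays were at background. Adult lung replicates 1, 2 and 3 gave -1.21, -0.66 and -0.85, all well above background. Adult mammary replicates 1, 2 and 4 gave -5.33, -6.25 and -3.26, with only replicate 4 well above background. Reprogrammed lung gave -2.62 on replicate 1, which was above background, and -5.85 and -5.97 on replicates 3 and 4, which were not. On reprogrammed mammary replicates 1, 2 and 3 the levels were -4.07, -5.37 and -4.49, and replicate 2 was not above background. All 9 of these arrays were below the adult lung arrays. Scnn1g thus passed the filter for testing through adult lung alone, the group where it was high, which favours differences in that direction. Because several arrays carry no signal above background, folds are given as bounds, computed against the lowest signal that was above background on each such array. Scnn1g was at least 11.6-fold higher in adult lung than in adult mammary (fitted log2 difference 4.04 ± 0.92, adjusted p = 0.00851), at least 10.3-fold lower in reprogrammed lung than in adult lung (-3.91 ± 0.92, adjusted p = 0.0116) and at least 12.4-fold lower in reprogrammed mammary than in adult lung (-3.74 ± 0.92, adjusted p = 0.0128). These bounds hold for this scaling of the signal only. With normexp background correction, which adds an offset of 50 to each signal, the fitted differences were 2.02, -1.81 and -2.01, and with the authors' values 2.43, -2.49 and -2.41, all past the threshold. In both of these settings the fall in reprogrammed lung was smaller for Scnn1g than for Scnn1a (-2.33 with normexp and -2.94 with the authors' values).

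The 2 arrays of Scnn1g that lay nearest to adult lung were adult mammary replicate 4 and reprogrammed lung replicate 1. Without them no array of adult mammary or reprogrammed lung was above background, so that the differences have no measured size. The calls were kept between the adult groups (adjusted p = 7.46e-05), in reprogrammed lung (adjusted p = 7.53e-05) and in reprogrammed mammary (adjusted p = 0.000116), each against adult lung. Without reprogrammed mammary replicate 2 the call in reprogrammed mammary was lost (-3.37, adjusted p = 0.0512). On slides that held arrays of both groups, reprogrammed lung minus adult lung was -4.65, -1.77 and -5.31 for Scnn1g, the middle value on the slide of reprogrammed lung replicate 1 and the others with the reprogrammed array at background, and -2.03, -4.43 and -2.46 for Scnn1a. With a fixed block for the slide both genes kept their calls in all 3 comparisons with adult lung: Scnn1a 3.21 (adjusted p = 0.0278) and Scnn1g 4.43 (adjusted p = 0.038) between the adult groups, -2.97 and -3.91 in reprogrammed lung, and -2.81 and -4.26 in reprogrammed mammary.

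Scnn1b, the beta subunit, had levels of -1.16, -0.64 and -1.18 on adult lung replicates 1, 2 and 3. It had -1.41, -1.91 and -2.17 on adult mammary replicates 1, 2 and 4, -1.85, -1.07 and -2.06 on reprogrammed lung replicates 1, 3 and 4, and -0.44, -1.89 and -0.82 on reprogrammed mammary replicates 1, 2 and 3. Adult lung and adult mammary did not overlap, but the difference of 0.84 ± 0.39 missed the threshold (adjusted p = 0.14), with a 95% interval from -0.03 to 1.71. It passed only where the fit held just the 2 adult groups (adjusted p = 0.0433). Adult lung and reprogrammed mammary overlapped, with a difference of -0.05 ± 0.39 (adjusted p = 0.949) and an interval from -0.92 to 0.82. Reprogrammed lung minus adult lung was -0.66 ± 0.39 (adjusted p = 0.266). In the order of group means, adult lung (-1.0) and reprogrammed mammary (-1.05) were level, as were reprogrammed lung (-1.66) and adult mammary (-1.83), within their SDs of 0.31 to 0.75. Whether Scnn1b differed less than Scnn1g was not tested.

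**Figure D2:**
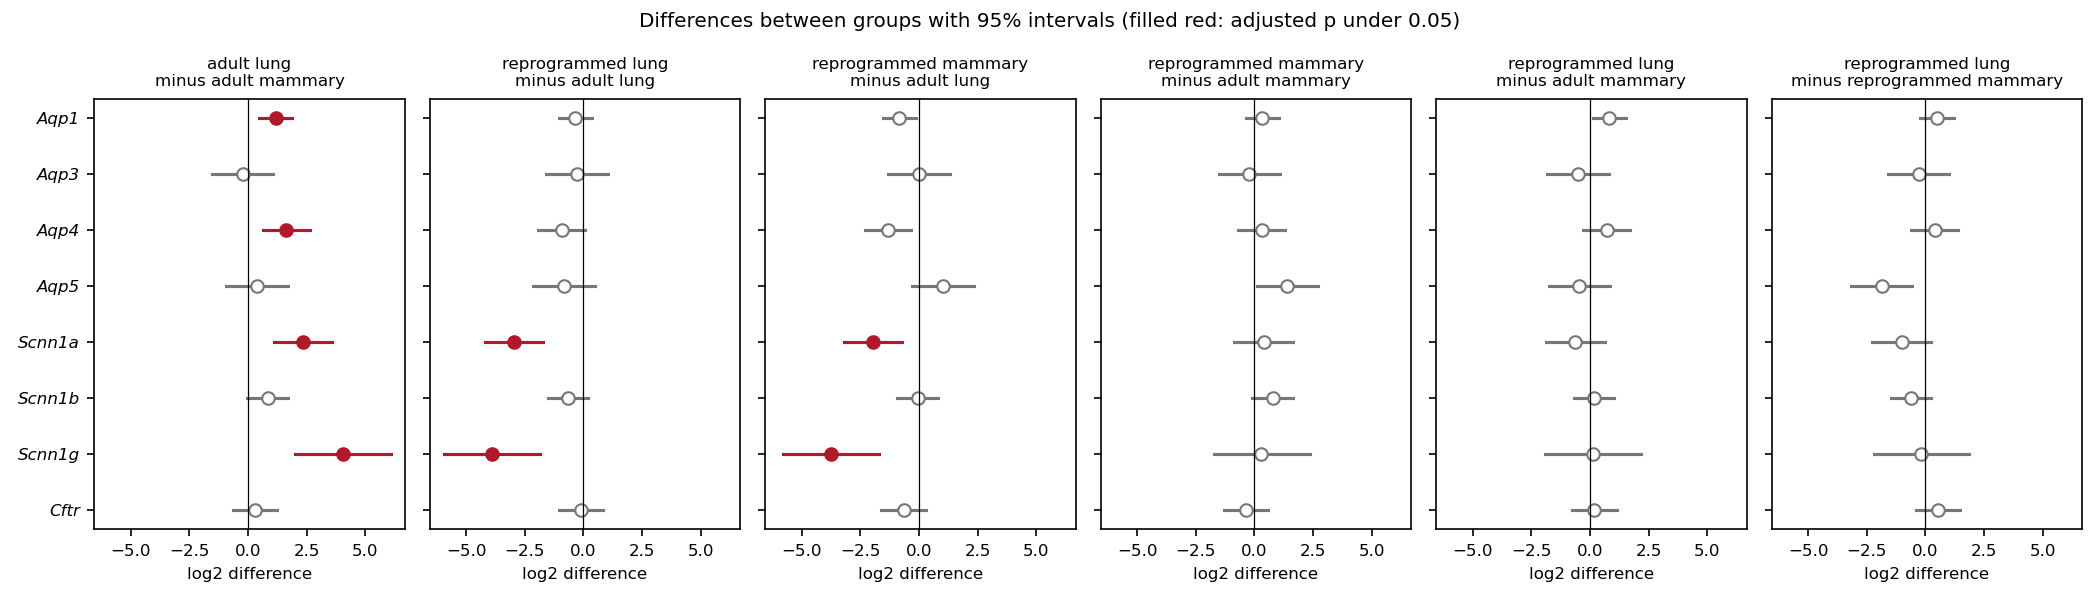
Difference between groups for each gene (log2, one panel per comparison) with its 95% interval from the limma fit; filled red points have an adjusted p under 0.05. Scnn1a and Scnn1g are red in the 3 panels that contain adult lung, Aqp1 and Aqp4 are red only between the adult groups, and no point is red in the 3 panels without adult lung.

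Aqp1, the water channel of capillary endothelium and red cells, was higher in adult lung than in adult mammary. Its levels were 5.19, 5.16 and 5.09 on adult lung replicates 1, 2 and 3 and 4.72, 3.89 and 3.27 on adult mammary replicates 1, 2 and 4. Reprogrammed lung replicates 1, 3 and 4 gave 5.19, 4.75 and 4.45, and reprogrammed mammary replicates 1, 2 and 3 gave 4.25, 4.31 and 4.35. The adult groups did not overlap, reprogrammed lung reached the adult lung level on replicate 1 only, and the reprogrammed mammary arrays, close together, lay below all adult lung arrays. Adult lung exceeded adult mammary by 1.19 ± 0.32 (2.27-fold, adjusted p = 0.0184). Reprogrammed mammary minus adult lung was -0.84 ± 0.32 (adjusted p = 0.0765, interval -1.55 to -0.14), and reprogrammed lung minus adult lung was -0.35 ± 0.32 (adjusted p = 0.487, interval -1.06 to 0.35). The call between the adult groups was lost when the slide entered the fit as a block (1.15, adjusted p = 0.136) and, each time narrowly, on leaving out replicate 1 (1.16) or 2 (1.18) of adult lung or replicate 2 (1.15) or 4 (0.84) of adult mammary, with adjusted p of at most 0.0591. On the one slide that held both adult groups the difference was 1.3. Without adult mammary replicate 4 and reprogrammed lung replicate 1 together, Aqp1 passed between the adult groups (0.84, adjusted p = 0.0207) and was lower in reprogrammed mammary than in adult lung (-0.84, adjusted p = 0.0121). Over 25 alternative settings, that one included, the difference in reprogrammed mammary missed the threshold in 17 and passed in the others (-1.17 to -0.65, adjusted p from 0.00101 to 0.304). Those passing included quantile normalization (-1.08, adjusted p = 0.0231), the authors' values (-1.17, adjusted p = 0.0146) and array weights (-0.86, adjusted p = 0.00222). With array weights, and without both arrays, calls over all features rose too in reprogrammed mammary. The difference in reprogrammed lung passed in none.

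Endothelial markers were, like Aqp1, higher in adult lung than in adult mammary, and many were lower in the reprogrammed groups. There Aqp1 passed in no setting for reprogrammed lung and only in some for reprogrammed mammary. Of 16 tested, 14 were higher in adult lung than in adult mammary (median difference 2.30), 11 were lower in reprogrammed lung than in adult lung (median -1.70) and 13 were lower in reprogrammed mammary (median -2.24). The shares of all features called in these directions were 12.5%, 9.31% and 11.2%. All 16 endothelial markers were above background on every array. Their median level was 4.02, 3.92 and 3.79 on the adult lung arrays, 1.93, 1.64 and 0.66 on adult mammary replicates 1, 2 and 4, 2.46, 2.12 and 1.86 on reprogrammed lung replicates 1, 3 and 4 and 1.73, 1.46 and 1.59 in reprogrammed mammary. Adult mammary replicate 4 was lowest for both the markers and Aqp1, and reprogrammed lung replicate 1 was highest for both outside adult lung. Of 6 tested erythroid markers, 3 were higher in adult lung than in adult mammary, and their median level ran from -2.32 to -1.29 in adult lung and from -3.98 to -1.38 elsewhere. The part of either cell type in the Aqp1 result was not tested.

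**Figure D3:**
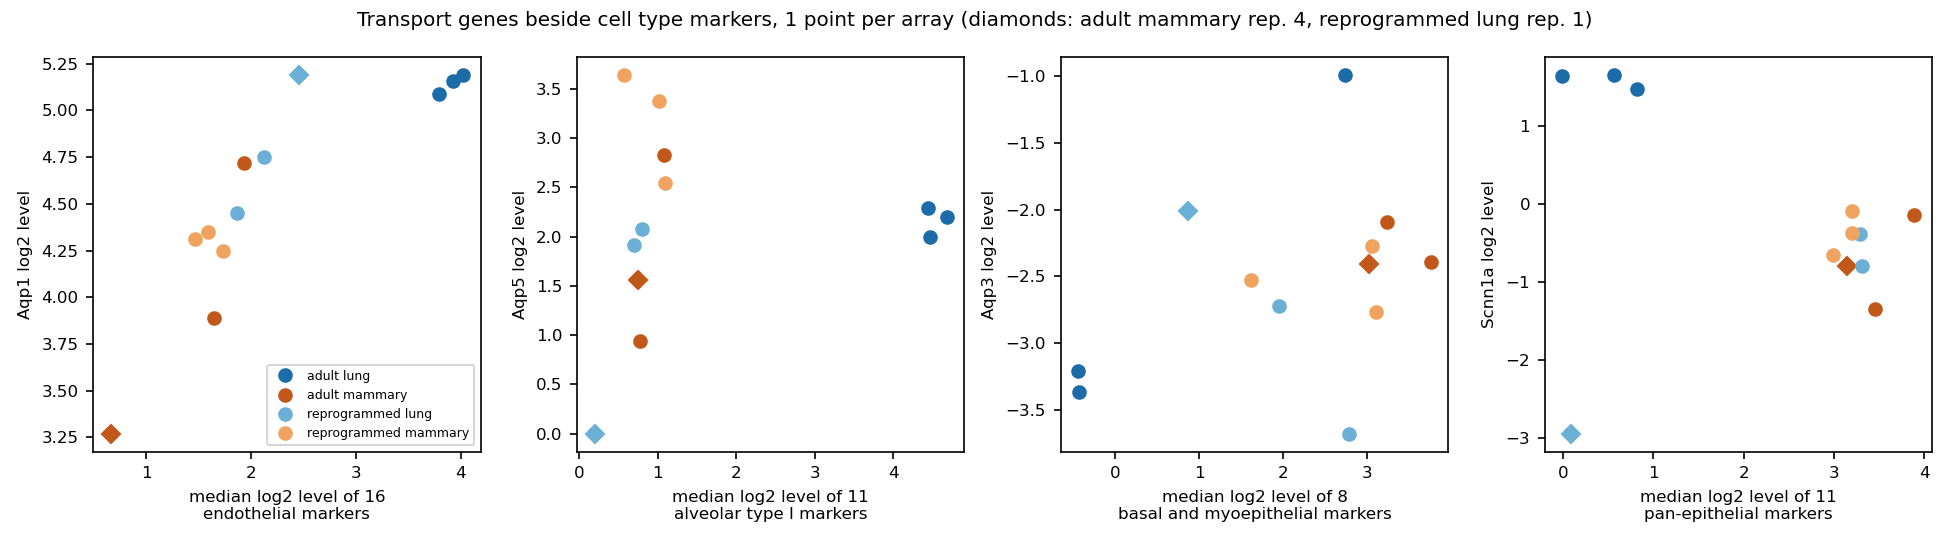
Level of Aqp1, Aqp5, Aqp3 and Scnn1a (vertical axes) against the median level of a list of cell type markers on the same array (horizontal axes), both log2 relative to the array's 75th percentile, with 1 point per array and diamonds for adult mammary replicate 4 and reprogrammed lung replicate 1. Aqp1 and endothelial markers are lowest on the same array, whereas Aqp5 spans 0.00 to 3.64 on arrays whose type I markers lie between 0.20 and 1.09.

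Aqp5, the apical water channel of alveolar type I cells, did not differ detectably between adult lung and adult mammary, whose levels overlapped. Adult lung replicates 1, 2 and 3 gave 2.00, 2.20 and 2.29, and adult mammary replicates 1, 2 and 4 gave 2.83, 0.94 and 1.56. Reprogrammed lung replicates 1, 3 and 4 gave 0.00, 2.08 and 1.91, while reprogrammed mammary replicates 1, 2 and 3 gave 3.38, 2.54 and 3.64, all above the adult lung arrays. Adult lung minus adult mammary was 0.39 ± 0.59 (adjusted p = 0.667), with a 95% interval from -0.92 to 1.70. In the same comparison all 11 tested type I markers were higher in adult lung by 1.30 (Cav1, a caveolar coat protein) to 7.66 (Akap5, a kinase anchor), with Ager, an immunoglobulin-like receptor, at 7.30 ± 0.27. All of these differences but that of Cav1 lay above the upper end of the Aqp5 interval, the nearest being Pdpn, podoplanin, at 1.88 ± 0.53. Whether Aqp5 differed from these markers was not tested as such.

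Aqp5 had its highest mean in reprogrammed mammary (3.19 ± 0.57, SD), then adult lung (2.16 ± 0.15), adult mammary (1.78 ± 0.96) and reprogrammed lung (1.33 ± 1.15). Reprogrammed mammary and adult lung did not overlap, and each later neighbour in that order overlapped the next. Reprogrammed mammary minus adult lung was 1.02 ± 0.59 (adjusted p = 0.245, interval -0.29 to 2.33). It passed the threshold where arrays were weighted by their quality (1.12, adjusted p = 0.0143) and where the fit held only those 2 groups (1.02, adjusted p = 0.0278), in none of the other settings, and with a fixed block for the slide the difference was -0.03 (adjusted p = 0.982). In both settings where it passed, calls over all features rose too. Against adult mammary the difference was 1.41 ± 0.59 (adjusted p = 0.474), and on the 2 slides that held both groups it was 0.55 and 2.07. Reprogrammed lung minus reprogrammed mammary was -1.86 ± 0.59 (adjusted p = 0.385) with no overlap, -0.64 on the slide they shared, and -1.19 on leaving out both arrays that stood apart. Pan-epithelial markers had a median level of 2.99 to 3.20 on the reprogrammed mammary arrays, 3.14 to 3.89 on the adult mammary arrays, 3.29 and 3.31 on reprogrammed lung replicates 3 and 4 and 0.09 on reprogrammed lung replicate 1, the array lowest in Aqp5 and in Scnn1a. Their part in the Aqp5 and Scnn1a values was not tested.

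Aqp3, which carries water and glycerol through the basolateral membrane of airway and skin epithelium, passed no test in any comparison. Adult lung replicates 1, 2 and 3 gave -3.37, -3.21 and -0.99, so that 1 array set the group's SD of 1.33. The range was -2.41 to -2.09 in adult mammary, -3.68 to -2.01 in reprogrammed lung and -2.77 to -2.27 in reprogrammed mammary. Group means lay between -2.80 and -2.30, closer together than the spread within adult lung or reprogrammed lung. Adult lung replicate 3 also stood apart in basal and myoepithelial markers, with a median level over 8 genes of 2.74 against -0.43 and -0.44 on replicates 1 and 2. Their part in the Aqp3 level of that array was not tested. On the other arrays those markers ran from 0.87 to 3.76 while Aqp3 stayed between -3.68 and -2.01.

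Aqp4, the basolateral water channel best known from brain astrocytes and also present in airway and alveolar epithelium, was higher in adult lung than in adult mammary. Levels were -3.06, -2.43 and -1.63 on adult lung replicates 1, 2 and 3 and -4.27, -4.43 and -3.33 on adult mammary replicates 1, 2 and 4. Reprogrammed lung replicates 1, 3 and 4 gave -2.53, -3.52 and -3.83, and reprogrammed mammary replicates 1, 2 and 3 gave -3.82, -3.28 and -3.99. The adult groups did not overlap, and neither did adult lung and reprogrammed mammary, but reprogrammed lung replicate 1 lay among the adult lung arrays. The difference between the adult groups was 1.63 ± 0.45 (3.1-fold, adjusted p = 0.0213). Reprogrammed mammary minus adult lung was -1.32 ± 0.45 (adjusted p = 0.0543) and reprogrammed lung minus adult lung -0.92 ± 0.45 (adjusted p = 0.18). On leaving out both arrays that stood apart all 3 differences passed: 1.97 between the adult groups (adjusted p = 0.00481), -1.32 in reprogrammed mammary (adjusted p = 0.0165) and -1.30 in reprogrammed lung (adjusted p = 0.0321). Over 26 alternative settings, that one included, the difference in reprogrammed mammary passed in 10 (the whole range being -2.38 to -0.82, adjusted p from 0.00202 to 0.211). Among them were array weights, the fit of only the groups compared and the fit without both arrays, where calls over all features rose too. The difference in reprogrammed lung passed in 3: without both arrays, under quantile normalization (-1.18, adjusted p = 0.0176) and with the authors' values (-0.83, adjusted p = 0.0189).

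The Aqp4 call rested on this probe and on the arrays used. A second probe of Aqp4 gave 0.66 between the adult groups (adjusted p = 0.729), with adult mammary replicate 4 (-1.60) and reprogrammed lung replicate 1 (-0.56) above all 3 adult lung arrays (-4.32, -3.31 and -2.52) and the other 7 arrays between -6.23 and -4.63. The mean of the Aqp4 probes gave 1.62 (adjusted p = 0.214), a fixed block for the slide 1.18 (adjusted p = 0.133) and the replicate block 1.63 (adjusted p = 0.0898). The call was also lost on leaving out replicate 2 (1.66) or 3 (1.26) of adult lung, or replicate 1 (1.5) or 2 (1.42) of adult mammary, with adjusted p up to 0.0812.

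Cftr, the cyclic AMP-gated chloride and bicarbonate channel, passed no test with its brightest probe in the unweighted fit over all 4 groups and 12 arrays, while its second probe did. With the brightest probe, adult lung replicates 1, 2 and 3 gave -0.79, -0.76 and -0.56, adult mammary replicates 1, 2 and 4 gave -1.29, -1.33 and -0.38, reprogrammed lung replicates 1, 3 and 4 gave 0.33, -1.24 and -1.54, and reprogrammed mammary gave -1.32, -1.36 and -1.39. Adult mammary replicate 4 and reprogrammed lung replicate 1 were the 2 highest of the 12 arrays, and the other 7 arrays outside adult lung lay between -1.54 and -1.24, below all adult lung arrays. The fitted differences were 0.30 ± 0.43 between the adult groups (adjusted p = 0.646), -0.11 ± 0.43 in reprogrammed lung (adjusted p = 0.888) and -0.65 ± 0.43 in reprogrammed mammary (adjusted p = 0.309). Without those 2 arrays each passed: 0.61 between the adult groups (adjusted p = 0.0132), -0.68 in reprogrammed lung (adjusted p = 0.00871) and -0.65 in reprogrammed mammary (adjusted p = 0.00516). The difference in reprogrammed mammary also passed with array weights (-0.64, adjusted p = 0.00951). It passed too where the fit held only reprogrammed mammary and adult lung (-0.65, adjusted p = 0.00443). In each setting where reprogrammed mammary passed with this probe, calls over all features rose too in that comparison.

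On the second Cftr probe the adult lung arrays read -3.55, -2.90 and -2.92. Adult mammary replicate 4 (-5.25) and reprogrammed lung replicate 1 (-4.01) were the only other arrays well above background, and the rest lay between -7.61 and -4.95. The probe thus passed the filter for testing through adult lung alone, the group where it was high, which favours differences in that direction. This probe was at least 3.94-fold higher in adult lung than in adult mammary (fitted 3.50, adjusted p = 0.0112) and at least 3.87-fold lower in reprogrammed mammary than in adult lung (fitted -3.69, adjusted p = 0.00871), and its difference of -2.40 in reprogrammed lung missed the threshold (adjusted p = 0.0644). In the unweighted fit over all 12 arrays the probes of Cftr therefore disagree on whether a test was passed. Their shared direction is no separate support, since the filter favoured it for the second probe. The mean of the Cftr probes passed between the adult groups (1.9, adjusted p = 0.0406) and in reprogrammed mammary (-2.17, adjusted p = 0.024). That mean includes the arrays at background of the second probe, so it is no separate support either.

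**Figure D4:**
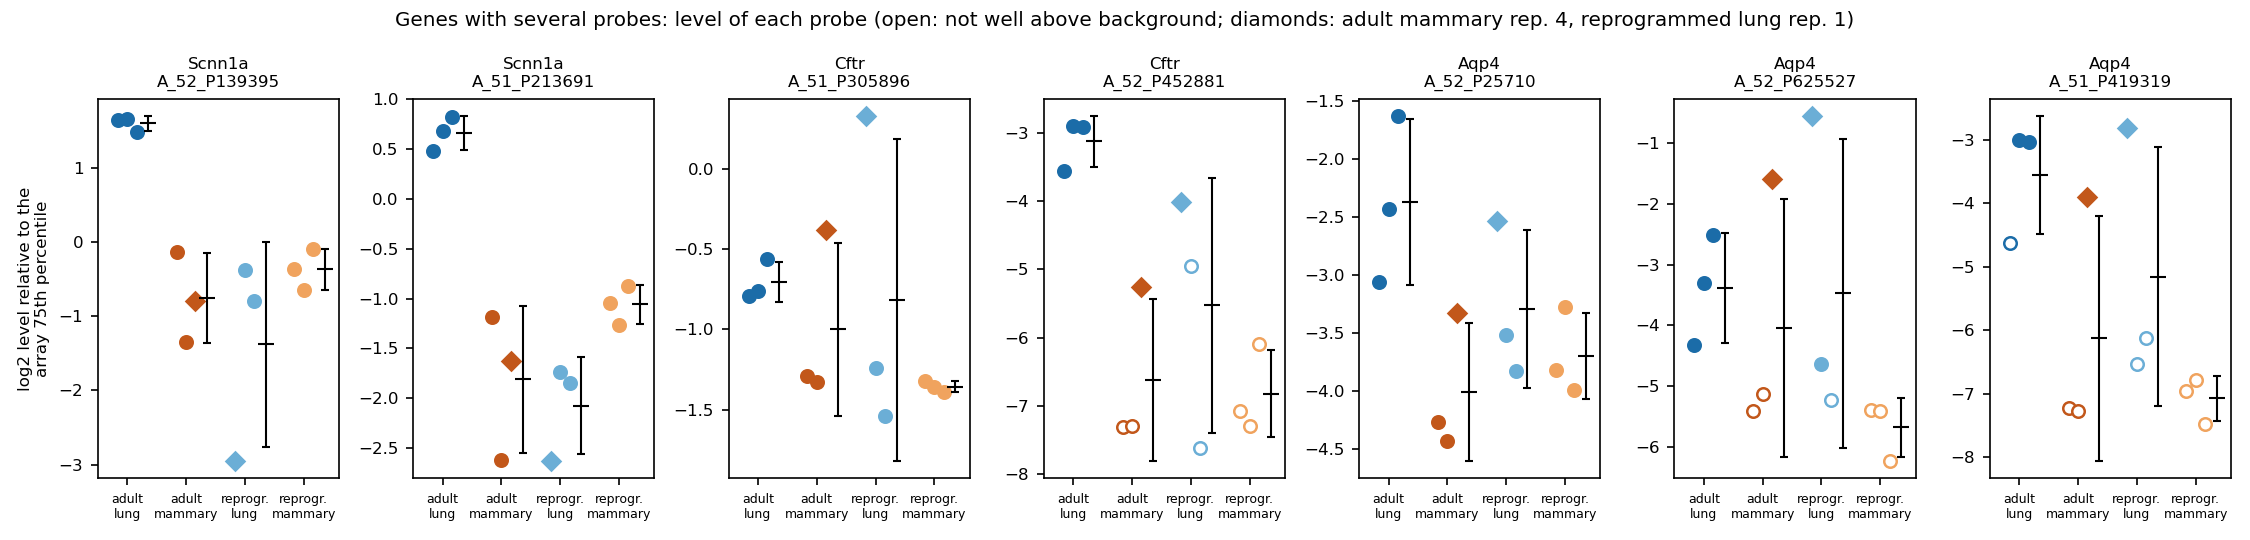
Level on each array of every probe of the 3 genes with several probes (log2 relative to the array's 75th percentile, one panel per probe with its own axis; bars are mean and SD of 3 arrays; open circles are not well above background and diamonds are adult mammary replicate 4 and reprogrammed lung replicate 1). Both Scnn1a probes place adult lung above all other arrays, and both diamonds lie above the rest of their groups on every Cftr and Aqp4 probe.

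Adult mammary and the 2 reprogrammed groups could not be told apart by these genes. None of the 8 passed limma's test between reprogrammed mammary and adult mammary (0.00408% of all features did), between reprogrammed lung and reprogrammed mammary (0.00408%) or between reprogrammed lung and adult mammary (0.0122%). At an unadjusted p under 0.05, 1 of 8 passed in each: Aqp5 in the first pair of comparisons and Aqp1 in the third, where 2457, 2347 and 2887 features did. Scnn1a differed by 0.39 ± 0.56 between reprogrammed and adult mammary (interval -0.86 to 1.64) and by -0.62 ± 0.56 between reprogrammed lung and adult mammary (interval -1.87 to 0.63). Both intervals reach past a change of 2-fold. Scnn1g was well above background on 1 adult mammary, 1 reprogrammed lung and 2 reprogrammed mammary arrays, so no size is given for its differences among these groups.

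The change from adult to reprogrammed cells was compared between the organ names, and of the 8 genes Scnn1a passed. The change in lung minus the change in mammary was -3.36 ± 0.80 (adjusted p = 0.0214), 1 of 8 genes where 12.8% of all features passed (7.41% higher, 5.39% lower). The difference is made of -2.97 in lung and 0.39 in mammary. Equally, it is reprogrammed lung minus reprogrammed mammary (-1.01 ± 0.56, adjusted p = 0.607) less the difference of 2.35 between adult lung and adult mammary. The larger part is thus the difference between the adult groups already given. The change in lung minus that in mammary was -2.56 (adjusted p = 0.0071) without the 2 arrays that stand apart and -2.58 (adjusted p = 0.00383) without reprogrammed lung replicate 1. Its call was lost in 8 of 25 alternative settings. Scnn1g, at -4.21 ± 1.30, missed the threshold (adjusted p = 0.0602) and passed in 6 of 23 settings: under quantile normalization (-4.38, adjusted p = 0.0124), with the authors' values (-2.51, adjusted p = 0.0018), with array weights (-5.67, adjusted p = 0.00158) and without adult mammary replicate 4 (adjusted p = 0.03), reprogrammed lung replicate 1 (adjusted p = 0.00584) or both (adjusted p = 0.000399). Aqp4 (-1.23, adjusted p = 0.248) passed in 3 of 25, under quantile normalization (-1.53, adjusted p = 0.0429), with the authors' values (-1.05, adjusted p = 0.0489) and without both arrays (-1.95, adjusted p = 0.034). Aqp5 (-2.24 ± 0.84, adjusted p = 0.11) and Scnn1b (-1.45 ± 0.55, adjusted p = 0.12) did not pass, though Scnn1b did without reprogrammed mammary replicate 2 (-1.87, adjusted p = 0.0402).

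Genes whose levels ran most like each of the 8 over the 12 arrays were looked up among the named features above background on every array, 12904 for a gene that is itself among them. The values are descriptions, since all points share the same arrays, groups and scaling. For Scnn1a they were Itga3, the integrin alpha 3 subunit (Pearson r 0.978 over 12 arrays), Ston1 (0.974) and Sort1, the sorting receptor sortilin (0.971). Those of Scnn1g were Mapk15 (0.965), Rsph1, a radial spoke protein of motile cilia (0.962), and Sema4f (0.961), and those of Aqp1 were Plvap, a protein of endothelial fenestrae (0.946), Socs2 (0.943) and Plxna4 (0.938). Aqp5 ran most like Qsox1 (0.964), Garnl3 (0.952) and Sh3d19 (0.939), and Aqp4 most like Cyp2a22 (0.954), Klk8 (0.953) and Gpx2, a glutathione peroxidase (0.949). For Cftr the leading genes were Cep250 (0.973), Pigv (0.961) and Tmem82 (0.961), for Scnn1b Klc2 (0.893), Faim2 (0.843) and Cers2 (0.824), and for Aqp3 Ada (0.811), Cmpk1 (0.808) and Cep85 (0.789). Ciliated cell markers, to which Rsph1 belongs, had a median level of -0.67 to -0.43 over 8 genes in adult lung and -3.74 to -1.63 elsewhere.

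The other genes of fluid and ion transport were followed as 4 lists. Of 7 tested other aquaporins, 1 was higher and 1 lower in each of the 3 comparisons with adult lung. Over all features 28.5% passed between the adult groups (12.5% higher, 15.9% lower). Against adult lung 23.4% passed in reprogrammed lung (14.1% higher, 9.31% lower) and 26.1% in reprogrammed mammary (14.9% higher, 11.2% lower). The counts of all 4 lists are to be read beside these shares. Aqp7, a water and glycerol channel of fat cells and small vessels, was at least 14.1-fold lower in adult lung than in adult mammary (fitted -3.90 ± 0.53, adjusted p = 0.000522). It was at least 20.4-fold higher in reprogrammed lung (4.43 ± 0.53, adjusted p = 0.000301) and at least 10.3-fold higher in reprogrammed mammary (3.44 ± 0.53, adjusted p = 0.00105) than in adult lung. In each comparison this was the direction opposite to that of Scnn1a and Scnn1g. Of 6 tested adipocyte markers, 3 were lower in adult lung than in adult mammary and 3 were higher in each reprogrammed group than in adult lung, with median levels of -2.23 to -1.76 in adult lung and -1.92 to -0.21 elsewhere, and their part in the Aqp7 result was not tested. Aqp11, an aquaporin of intracellular membranes, was higher in adult lung than in adult mammary (0.55 ± 0.17, adjusted p = 0.0316) and lower in reprogrammed lung (-0.77 ± 0.17, adjusted p = 0.00733) and reprogrammed mammary (-0.94 ± 0.17, adjusted p = 0.0022).

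The FXYD proteins are small membrane proteins that tune the Na,K-ATPase, the pump that drives sodium out of the cell on its basolateral side. Of the pump subunits and FXYD proteins, 11 of 12 were tested: 1 was higher and 4 lower in adult lung than in adult mammary (median -0.21), and in each reprogrammed group 3 were higher and 2 lower than in adult lung (medians 0.21 and 0.12). The shares of all features that passed were 28.5% between the adult groups, 23.4% in reprogrammed lung and 26.1% in reprogrammed mammary. Adult lung minus adult mammary was -4.50 ± 0.87 for Fxyd3 (adjusted p = 0.0037), with Fxyd2 at -3.62 (adjusted p = 0.000111) and Fxyd6 at -2.55 (adjusted p = 0.00104). Against adult lung these FXYD genes rose in both reprogrammed groups: Fxyd3 by 3.77 in reprogrammed lung and 4.81 in reprogrammed mammary, Fxyd6 by 2.53 and 2.95, and Fxyd2 by 1.78 and 1.65, with adjusted p of at most 0.0107. Those lower included Atp1b1, the beta 1 subunit of the pump (-1.61 in reprogrammed lung, adjusted p = 0.0216, and -1.54 in reprogrammed mammary, adjusted p = 0.0241).

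ENaC regulators include proteases that cleave and activate the channel, ubiquitin ligases that remove it and the steroid receptors that raise its activity. Of 16 tested, 3 were higher and 2 lower in adult lung than in adult mammary (median -0.29). Over all features 28.5% passed there, and against adult lung 23.4% passed in reprogrammed lung and 26.1% in reprogrammed mammary. St14, the protease matriptase, was lower (-2.44 ± 0.71, adjusted p = 0.0271), as was Usp2, a deubiquitinase (-1.40 ± 0.39, adjusted p = 0.0229). Those higher included Tsc22d3, the glucocorticoid-induced leucine zipper (1.56 ± 0.39, adjusted p = 0.0129), and Nr3c1, the glucocorticoid receptor gene (0.78, adjusted p = 0.0107). In reprogrammed lung none was higher and 3 of 16 were lower than in adult lung, among them the protease gene Tmprss4 (-1.50, adjusted p = 0.0455) and Nr3c1 (-0.90, adjusted p = 0.00575). Of 15 tested in reprogrammed mammary, 3 were higher and 3 lower, among them Tmprss2, another membrane protease (2.96, adjusted p = 0.0191), Tsc22d3 (-2.72, adjusted p = 0.000654) and St14 (2.15, adjusted p = 0.0481). Nr3c1 passed in all 3 comparisons and was higher in adult lung in each.

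Anion and potassium transport genes gave 19 tested of 21. Between the adult groups 4 were higher in adult lung and 7 lower (median -0.31), in reprogrammed lung 8 were higher and 3 lower than in adult lung (median 0.58), and in reprogrammed mammary 6 were higher and 3 lower (median 0.39). Of all features 28.5%, 23.4% and 26.1% passed in these comparisons. Slc26a9, an apical chloride channel of airway and stomach, was higher in adult lung than in adult mammary by 3.37 ± 0.34 (adjusted p = 0.000106) and lower than there in reprogrammed lung (-3.30, adjusted p = 0.000142) and reprogrammed mammary (-3.84, adjusted p = 4.38e-05). Slc9a3r2, a PDZ scaffold of sodium-proton exchangers, went the same way between the adult groups (2.33, adjusted p = 0.000232) and in reprogrammed lung (-2.05, adjusted p = 0.000526). Kcnn4, a calcium-activated potassium channel, was lower in adult lung than in adult mammary (-3.51 ± 0.45, adjusted p = 0.000377) and higher in reprogrammed lung (2.84, adjusted p = 0.00148) and reprogrammed mammary (3.17, adjusted p = 0.000659), and Ano1, a calcium-activated chloride channel, was lower in adult lung than in adult mammary (-2.21, adjusted p = 0.00671) and higher in reprogrammed mammary (2.67, adjusted p = 0.0024). Kcnma1 rose in reprogrammed lung (1.98, adjusted p = 0.00061) and Slc12a2, the basolateral sodium-potassium-chloride cotransporter, in reprogrammed mammary (2.12, adjusted p = 0.0101). No gene of the 4 lists passed in the 3 comparisons without adult lung.

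**Figure D5:**
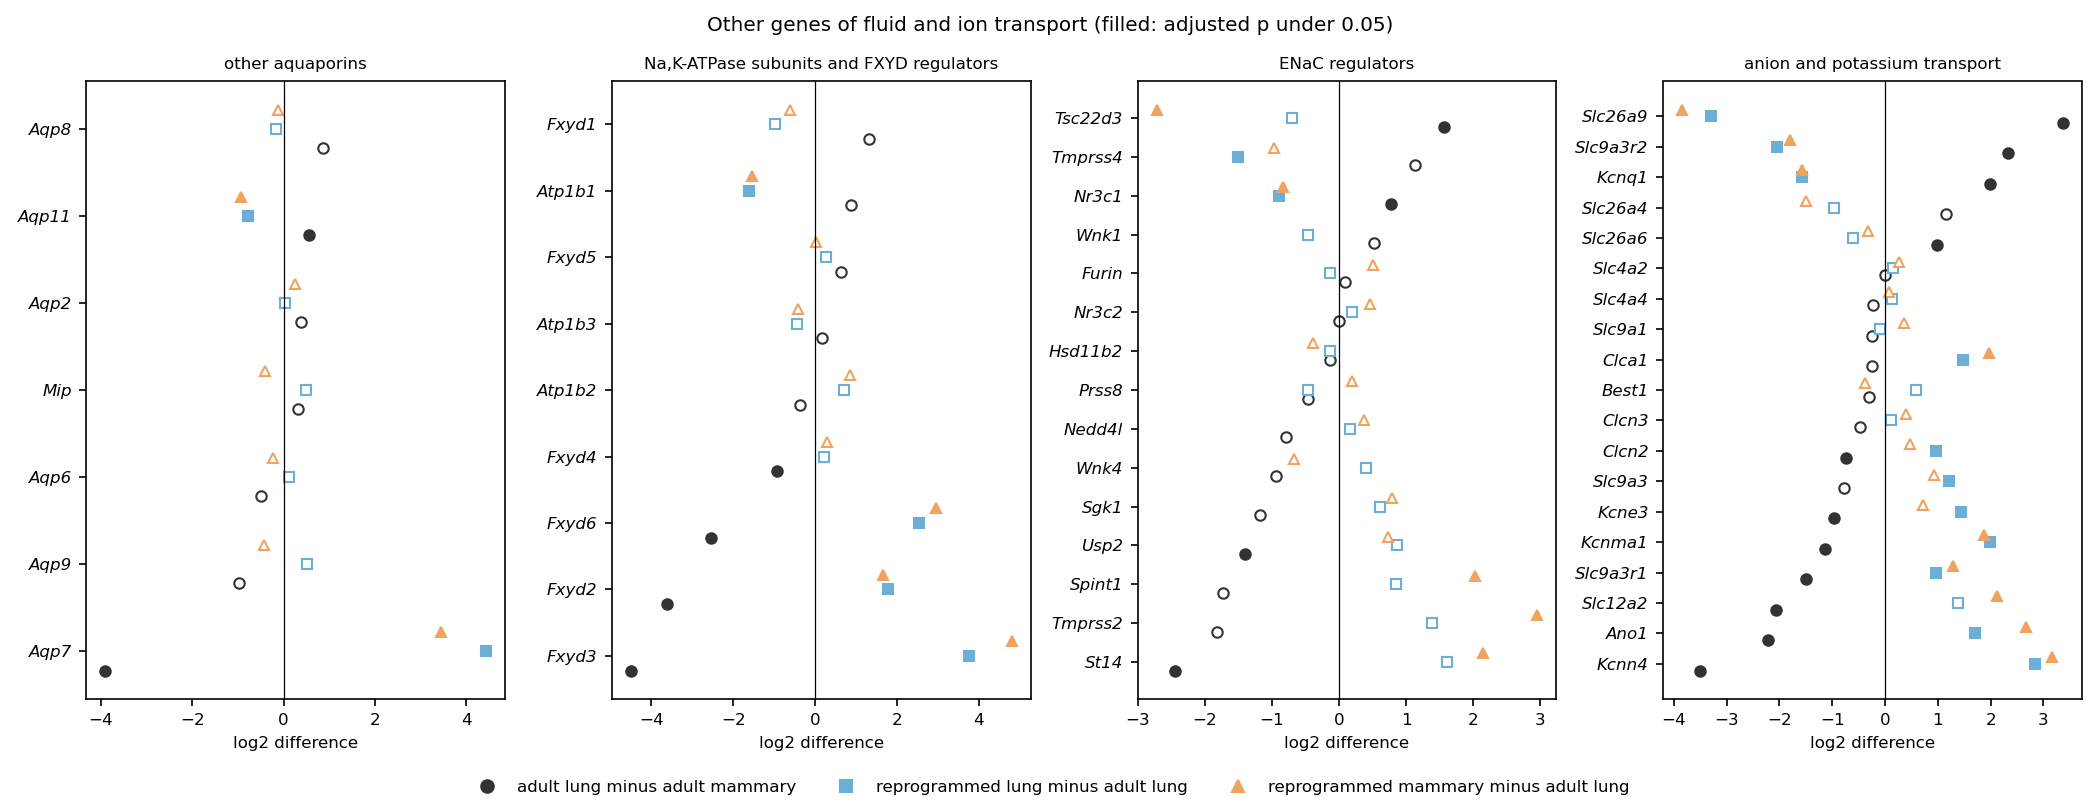
Differences (log2) of genes of 4 other transport lists in the 3 comparisons that contain adult lung, 1 row per gene, filled where the adjusted p was under 0.05. Black circles and the coloured symbols fall on opposite sides of 0 for the genes called in all 3 comparisons because each sets adult lung on the other side, as for Aqp7 (-3.90, 4.43 and 3.44) and Slc26a9 (3.37, -3.30 and -3.84).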

How the data were processed

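RNA was amplified, labelled with Cy3 and hybridised to arrays of design 014868 (build mm9, per the file headers). The deposited intensity values came from Agilent Feature Extraction, version 10.5.1.1 per the file headers and 10.1 per the submitters' processing notes, with background subtracted within each array. The authors' series matrix holds log2 values with equal medians on the 12 arrays; how they were normalized is not stated in any source used here, and they served as an alternative.

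From the deposited intensities, spots of a probe were averaged after 91 to 280 outlier spots per array were left out, log2 was taken and the array's 75th percentile subtracted. Accessions matched to RefSeq named 24844 of 41174 probes. The 24496 features above background on all 3 arrays of a group were tested with limma 3.58.1 (R 4.3.3): a mean per group over 12 arrays, moderated variances (8 residual and 2.37 prior degrees of freedom), two-sided p adjusted by Benjamini-Hochberg over all features, threshold 0.05. The script was tested on simulated data. With 3 arrays per group, their number limits the precision. The alternatives were other background correction, normalization, filters, probes, variance models, weights and blocks, and arrays left out. Normexp used the median signal, since the mean signal is not among the columns used here. All 8 members are described, with at most 4 called genes of largest difference per other list and comparison and the 3 named features of highest correlation with each member; a gene given beside these (Atp1b1, Nr3c1 against adult mammary, and the type I markers Cav1 and Pdpn) was chosen after its values were seen. Some genes of the other transport lists are not reported here. The members and lists were chosen with earlier results of these data known.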

Additional observations from a re-analysis of the deposited data

Results flagged for a closer look

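Scnn1a differed in its change from adult to reprogrammed cells between the organ names: the change in lung minus the change in mammary was -3.36 ± 0.80 (log2, SE, limma, adjusted p = 0.0214). All 3 reprogrammed lung arrays lay below all 3 adult lung arrays, while reprogrammed and adult mammary overlapped. The difference was smaller without reprogrammed lung replicate 1 (-2.58, adjusted p = 0.00383) and without that array and adult mammary replicate 4 together (-2.56, adjusted p = 0.0071). The second probe of Scnn1a gave -3.49 (adjusted p = 0.00202). The call was lost under quantile normalization (-3.74, adjusted p = 0.0567), with a replicate block (-3.54, adjusted p = 0.0813), with a fixed block for the slide (-3.37, adjusted p = 0.0507) and on leaving out adult lung replicate 1 or 2, adult mammary replicate 2 or reprogrammed mammary replicate 1 or 3 (-3.37 to -3.07, adjusted p up to 0.0553). Since the labels do not give the organ a reprogrammed sample is named for, the same 12 arrays can also be read as reprogrammed lung against adult mammary, where Scnn1a differed by -0.62 ± 0.56 (adjusted p = 0.651). The larger part of the -3.36 is the difference of 2.35 between adult lung and adult mammary. Reprogrammed lung and reprogrammed mammary differed by -1.01 ± 0.56 (adjusted p = 0.607).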

How the results depend on the processing

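Between the adult groups 4 of 8 genes were called, 2 with a fixed block for the slide, 2 to 4 with 1 array left out and 2 to 5 over all 25 settings. Over all features 6978 were called there, 6613 under quantile normalization, 6792 with the authors' values and 4752 with normexp background correction. In reprogrammed lung against adult lung 2 were called, 1 where only features above background on all arrays were tested (Scnn1g is then left out) and 4 on leaving out both reprogrammed lung replicate 1 and adult mammary replicate 4. Over all features 5722 were called there, 5534 under quantile normalization, 5608 with the authors' values and 2828 with normexp background correction. In reprogrammed mammary against adult lung 2 were called, 4 with the authors' values, 6 with array weights, 6 where the fit held just the groups compared, 5 without those 2 arrays and 0 to 4 with 1 array left out. Over all features 6394 were called there, and 6226, 12495, 10753 and 9223 in the first 4 of these settings, so that calls among all features rose too in all but the authors' values. The test of whether lung and mammary changed alike called 1, then 2 under quantile normalization, 3 with the authors' values, 2 with array weights, 0 with the replicate block, 0 with a fixed block for the slide, 3 without those 2 arrays and 0 to 2 with 1 array left out, and was not run with only the groups compared. Over all features it called 3135, then 2905 under quantile normalization and 3081 with the authors' values. For fits with a block or with arrays left out, calls over all features are given only for reprogrammed mammary without those 2 arrays. They are also not given for reprogrammed lung where only features above background on all arrays were tested, or for the last test with array weights. Member counts without calls over all features beside them cannot be read as particular to the 8 genes. In the 3 comparisons without adult lung none of the 8 was called in any of the 25 settings.

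No member difference called in the fit over all 12 arrays changed direction in any setting. Among the 1403 values of member differences in other settings, 57 had the opposite sign, all of differences called neither there nor in that fit. The replicate numbers showed no clear pairing of the arrays. Deviations of same-numbered arrays correlated at -0.53 to 0.332 over 13 pairs (median 0.0353). Those of other arrays correlated at -0.433 to 0.644 over 41 pairs (median 0.00766). With 3 arrays per group these values cannot exclude a pairing. With the replicate block, 3 of the 8 genes were called between the adult groups and 2 in each reprogrammed group against adult lung. Normexp background correction moved the median difference of all features to 0.34 between the adult groups, -0.20 in reprogrammed lung and -0.28 in reprogrammed mammary against adult lung, and with it 60.9%, 39.7% and 42.9% of called features were higher, against 44%, 60.2% and 57%. In the test of whether lung and mammary changed alike that share was 34.2% with normexp and 47.2% under quantile normalization and 44% with the authors' values, against 57.9%. With the authors' values and quantile normalization 47.5% and 50.7% of called features were higher in reprogrammed lung.

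Dim signal limits Scnn1g, Aqp4 and the second Cftr probe, whose arrays at background have no order. Scnn1g and the second probes of Cftr and Aqp4 passed the filter for testing through adult lung alone. The fits of the other Scnn1a, Cftr and Aqp4 probes were added after seeing the data.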

Other observations

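Another probe of Aqp4 was not tested, because it was not well above background on all 3 arrays of any group. Its levels were -4.63, -3.01 and -3.03 on adult lung replicates 1, 2 and 3, -7.22, -7.27 and -3.90 on adult mammary replicates 1, 2 and 4, -2.81, -6.53 and -6.13 on reprogrammed lung replicates 1, 3 and 4, and -6.96, -6.79 and -7.47 in reprogrammed mammary. It was above background on adult lung replicates 2 and 3, adult mammary replicate 4 and reprogrammed lung replicate 1. Kidney tubule also expresses Aqp4 and the ENaC subunits, and 7 tested kidney tubule markers had median levels of -4.15 to -3.30 in adult lung, and -1.75 on reprogrammed lung replicate 1 and -2.54 on adult mammary replicate 4 were the highest of the 12 arrays.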
